A study of Mus musculus with 8 samples.

Results

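Islet hormones and neuropeptides were followed in pancreatic islets of knockout (KO) mice, which carry a targeted loss of 1 gene, and of wild type (WT) mice. The 10 genes were Ins1, Ins2, Iapp, Gcg, Sst, Ppy, Pyy, Npy, Vip and Penk, and their probe sets were chosen by gene symbol, current or older, in the array annotation. Of 24965 probe sets in all, 13 belonged to these genes, 12 of them on the Affymetrix array type MG-U74A and 1, that of Pyy, on MG-U74B. No probe set with 1 symbol was annotated to Ins1, which is not analysed here. So 9 genes had values, of 13675 gene symbols in the annotation of both array types. Probe sets annotated with several symbols, 396 on MG-U74A and 178 on MG-U74B, were not assigned to a gene. Of the 13 probe sets, 11 passed the filter on low values and were tested, while 2 of the 3 Penk probe sets did not pass.

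Total RNA of KO and of WT islets was hybridised with 2 replicates of each genotype on each array type, 8 arrays in all, and the series calls the replicates biological. Strain, age, sex and pooling of animals are not given in the labels used here. A value is the intensity of a probe set in linear, scaled units, with an average close to 250.2 for MG-U74A and 250.1 for MG-U74B after the extremes of each array are left out. The log2 change is KO minus WT after 10% of that average is added to each intensity, so changes of dim probe sets are understated, and its error is a standard error from limma. A probe set was called at an adjusted p below 0.05 in limma's test, with Benjamini-Hochberg adjustment over all tested probe sets of its array type.

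Islets hold several endocrine cell types that store peptide hormones in dense granules. Beta cells secrete insulin together with islet amyloid polypeptide, alpha cells secrete glucagon, delta cells somatostatin and PP cells pancreatic polypeptide. Each hormone is made as a longer precursor that convertases and a carboxypeptidase cut to the active peptide in the granule. Neuropeptides such as Npy, Vip and the enkephalins are known mainly from nerve fibres, and Npy and Pyy are relatives of Ppy.

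The stretch around the gene start is shown for 5 genes whose level was called changed and for Pyy, the neighbour of Ppy, from 250 bases before to 50 bases after the start (RefSeq, GRCm38.p6). A window was matched for 8 of the 10 genes, not for Ins2 and Penk. Capitals mark every match, on either strand, of TGACG, the core of the cAMP response element, of TAAT, a core bound by homeodomain proteins, and of TATAA, the TATA box, where matches may overlap.
Iapp, chr6:142298175-142298474, plus strand: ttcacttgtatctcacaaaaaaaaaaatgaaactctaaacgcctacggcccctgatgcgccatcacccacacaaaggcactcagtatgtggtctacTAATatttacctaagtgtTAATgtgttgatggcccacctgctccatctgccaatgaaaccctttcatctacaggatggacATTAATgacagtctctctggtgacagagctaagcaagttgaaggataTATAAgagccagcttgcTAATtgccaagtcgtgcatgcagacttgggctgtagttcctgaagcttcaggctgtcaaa
Gcg, chr2:62483604-62483903, minus strand: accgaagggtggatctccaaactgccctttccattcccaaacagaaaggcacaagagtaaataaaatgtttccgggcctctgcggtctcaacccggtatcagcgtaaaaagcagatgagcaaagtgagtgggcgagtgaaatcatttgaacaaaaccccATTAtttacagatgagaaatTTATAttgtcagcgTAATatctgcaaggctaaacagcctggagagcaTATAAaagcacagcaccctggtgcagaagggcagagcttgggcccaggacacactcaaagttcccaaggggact
Sst, chr16:23890795-23891094, minus strand: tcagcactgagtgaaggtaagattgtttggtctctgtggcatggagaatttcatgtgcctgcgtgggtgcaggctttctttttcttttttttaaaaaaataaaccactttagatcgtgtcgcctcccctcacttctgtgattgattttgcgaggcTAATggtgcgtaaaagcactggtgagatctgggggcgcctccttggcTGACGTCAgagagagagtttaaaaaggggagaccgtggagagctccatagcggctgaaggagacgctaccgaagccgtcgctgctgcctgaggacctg
Ppy, chr11:102101270-102101569, minus strand: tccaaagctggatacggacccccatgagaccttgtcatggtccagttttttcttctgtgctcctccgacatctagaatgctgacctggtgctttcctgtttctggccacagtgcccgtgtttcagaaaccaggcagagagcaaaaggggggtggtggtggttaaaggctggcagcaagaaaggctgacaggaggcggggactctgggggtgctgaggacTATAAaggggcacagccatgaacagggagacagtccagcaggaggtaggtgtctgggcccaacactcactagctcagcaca
Pyy, chr11:102107783-102108082, minus strand: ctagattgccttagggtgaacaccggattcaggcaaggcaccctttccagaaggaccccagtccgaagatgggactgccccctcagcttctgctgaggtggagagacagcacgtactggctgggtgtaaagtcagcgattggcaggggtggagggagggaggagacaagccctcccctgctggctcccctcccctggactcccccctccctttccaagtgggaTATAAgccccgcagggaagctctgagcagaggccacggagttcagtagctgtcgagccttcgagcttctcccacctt
Vip, chr10:5638968-5639267, plus strand: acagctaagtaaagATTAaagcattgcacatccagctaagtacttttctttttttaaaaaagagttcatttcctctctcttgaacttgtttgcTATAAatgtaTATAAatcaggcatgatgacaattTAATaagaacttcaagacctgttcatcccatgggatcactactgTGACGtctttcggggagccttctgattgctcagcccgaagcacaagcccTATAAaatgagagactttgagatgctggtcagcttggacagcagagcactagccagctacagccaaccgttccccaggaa
The Iapp window held 5 matches of TAAT, the Gcg window 2, the Sst window 1 and the Vip window 2, and TAAT occurs in 58.0% of 32817 windows of the same length in the mouse table. TGACG stood in the Sst window on both strands in overlapping positions, from base -48, and in the Vip window once, from base -79, and 20.8% of all windows hold it. A TATAA began 24 to 31 bases before the start in the windows shown of Iapp, Gcg, Ppy, Vip and Pyy, and 24.9% of all windows hold it anywhere. Pyy had another matched window, from a different start and not shown, in which the TATAA begins at base -83. Each match is a description of these letters and not a measured site.

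The hormones of beta, alpha, delta and PP cells were lower in KO islets, by 0.27 to 0.94 on the log2 scale, while Vip and Penk were higher by 1.00 and 0.86, and Npy and Pyy were not called. Of the 10 tested probe sets of these genes on MG-U74A, 7 were called lower and 2 higher in KO islets, where 29.0% of all 7516 tested probe sets were called lower and 23.9% higher (52.9% in all). The 7 that fell belong to Ins2, Iapp, Gcg, Sst and Ppy, all among the brightest 100 tested probe sets of MG-U74A. The KO and WT arrays did not overlap for any of the 10, as for 79.1% of all tested probe sets. The median log2 change of all tested probe sets of MG-U74A was -0.09. In bulk RNA, fewer cells of a type and less RNA per cell cannot be told apart. With 2 KO and 2 WT arrays the smallest p of an exact permutation test is 0.333, so the calls rest on the spread that limma pools over probe sets. With no filter 3 of the calls stayed, those of Gcg, Sst and the dimmer Ppy probe set, all lower. The calls of Vip and Penk ended there, and Npy was called higher instead. Fewer of the calls stayed without WT replicate 1 or without WT replicate 2, and all stayed without either KO replicate. Without a KO replicate the spread came from the WT pair alone, the closer pair for most of these probe sets. Calls that stayed there therefore cannot show that the result is stable.

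**Figure D1:**
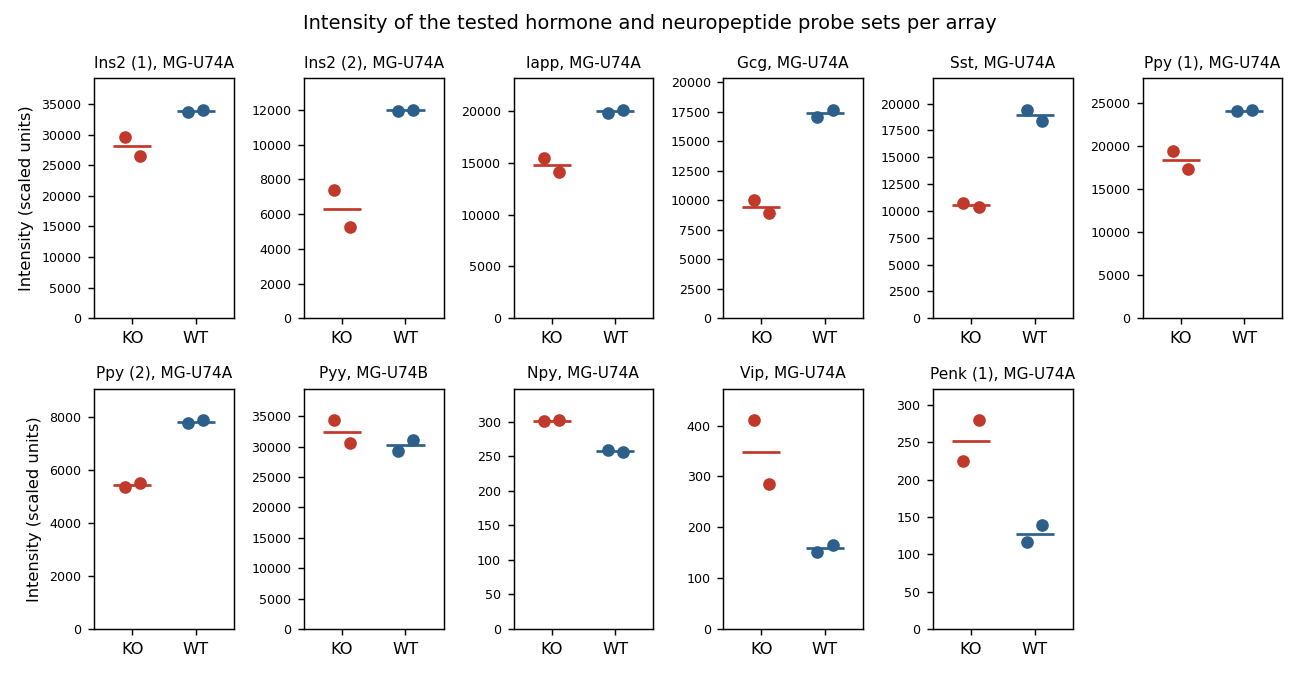
Intensity (linear, scaled units, axes from 0) of the 11 tested probe sets in KO arrays (left) and WT arrays (right). Points are arrays and bars are means of 2 arrays. Ins2, Iapp, Gcg, Sst and Ppy lie lower in both KO arrays, Vip, Penk and Npy higher, and the Pyy arrays overlap; (1) and (2) name the brighter and the dimmer probe set of a gene.

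Ins2 encodes insulin and was read by 2 probe sets that fell by unequal amounts. The brighter one gave 29623 and 26557 in KO islets, against 33667 and 34052 in WT islets. Both KO arrays lay below both WT arrays, and the KO pair was further apart than the WT pair. Its means were 28090 ± 2168 in KO and 33860 ± 272 in WT islets (SD, n = 2 each), a KO level of 0.830 times the WT level and a log2 change of -0.27 ± 0.06 (limma, adjusted p = 0.0252). The dimmer probe set gave 7374.5 and 5243.8 in KO islets, against 11947 and 12018 in WT islets. Here the KO level was 0.527 times the WT level, with a log2 change of -0.94 ± 0.17 (limma, adjusted p = 0.0139). The identifier of the brighter probe set ends in f_at and that of the dimmer one in r_at. The suffix f marks a probe set whose probes may match several similar sequences, so signal from Ins1 and Ins2 may be summed, and the suffix r marks relaxed probe selection. The dimmer Ppy probe set and the tested Penk probe set also carry the suffix f.

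The call on the brighter Ins2 probe set ended without WT replicate 1 (log2 change -0.28) and without WT replicate 2 (-0.26). It also ended with no filter (limma, adjusted p = 0.322) and with no variance trend (0.0780). Quantile normalization set the change of this probe set to 0.00. The same 2 probe sets lay above it on each array, and that step gives equal ranks equal values, so it could not show a change. The call on the dimmer Ins2 probe set ended without WT replicate 1 (log2 change -0.95), without WT replicate 2 (-0.94) and with no filter (limma, adjusted p = 0.0747).

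Iapp encodes islet amyloid polypeptide, which beta cells release with insulin. It gave 15485 and 14092 in KO islets, against 19797 and 20141 in WT islets. The groups did not overlap, and the gap between them was larger than the spread within either. The KO mean was 14788 ± 985 and the WT mean 19969 ± 244 (SD, n = 2 each). The log2 change was -0.43 ± 0.06 (limma, adjusted p = 0.00508). That call ended without WT replicate 2 (limma, adjusted p = 0.0511) and with no filter (0.0641).

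Gcg encodes proglucagon, the precursor of glucagon, which raises blood glucose, and of the GLP peptides. Its probe set gave 10005 and 8901 in KO islets, against 17085 and 17686 in WT islets. Both KO arrays lay far below the WT arrays relative to the spread of either pair. The KO mean was 9452.8 ± 780.3, or 0.544 times the WT mean of 17386 ± 425 (SD, n = 2 each), a log2 change of -0.88 ± 0.07 (limma, adjusted p = 0.00126).

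Sst encodes somatostatin, which restrains the release of insulin and glucagon. It gave 10737 and 10355 in KO islets, against 19428 and 18417 in WT islets. The gap between the genotypes was many times the spread of the KO pair. The KO mean was 10546 ± 270 and the WT mean 18923 ± 715 (SD, n = 2 each), a log2 change of -0.84 ± 0.04 (limma, adjusted p = 4.80e-04).

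Ppy encodes pancreatic polypeptide and was also read by 2 probe sets. The brighter one gave 19434 and 17359 in KO islets, against 24004 and 24196 in WT islets, a log2 change of -0.39 ± 0.06 (limma, adjusted p = 0.00964). The dimmer one gave 5363.2 and 5528.2 in KO islets, against 7796.7 and 7888.6 in WT islets, a log2 change of -0.52 ± 0.03 (limma, adjusted p = 7.37e-04). On both, each KO array lay below each WT array. The call on the brighter probe set ended without WT replicate 1 (limma, adjusted p = 0.0700), without WT replicate 2 (0.0752) and with no filter (0.112). Gcg, Sst and the dimmer Ppy probe set stayed called lower in all 12 alternative fits, with adjusted p of at most 0.0185 for Gcg, 0.0122 for Sst and 0.0168 for Ppy.

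Pyy encodes peptide YY, a gut and islet peptide of the same family, and is the direct neighbour of Ppy on chromosome 11 in the GRCm38.p6 gene table. It was measured only on MG-U74B, where it gave 34333 and 30630 in KO islets, against 29266 and 31140 in WT islets. The groups overlapped, and the KO mean of 32482 ± 2618 stood 1.08 times as high as the WT mean of 30203 ± 1325 (SD, n = 2 each). Its log2 change of 0.10 ± 0.11 was not called (limma, adjusted p = 0.547; unadjusted, it did not pass 0.05 either), with a 95% interval of -0.19 to 0.39. On that array type 17.5% of 7861 tested probe sets were called, 8.87% lower and 8.59% higher, and the arrays of the genotypes did not overlap for 65.0%. The arrays were scaled separately for the array types, so Pyy and Ppy were not tested against each other. Quantile normalization turned the Pyy change to -0.52 and called it (limma, adjusted p = 0.00783). That step ranked the control probe sets too, and with them counted Pyy ranked 6 by mean on MG-U74B. The highest value of each MG-U74B array was a control, at 75845 and 63035 in KO arrays, against 47259 and 46697 in WT arrays. The part of the controls in the turned Pyy change was not tested.

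**Figure D2:**
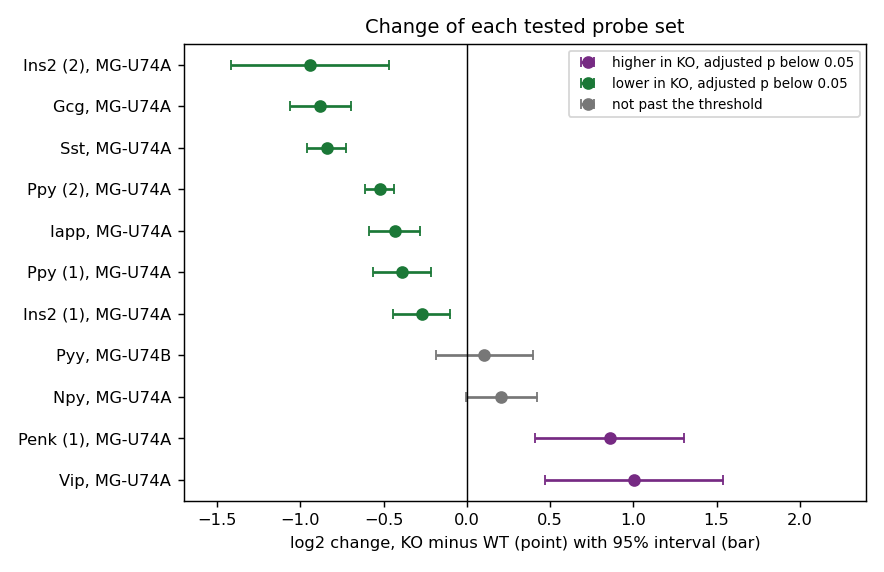
Log2 change, KO minus WT, of the 11 tested probe sets (points) with the 95% interval from limma (bars). The 7 probe sets of Ins2, Iapp, Gcg, Sst and Ppy lie below 0, Vip and Penk above 0, and the intervals of Pyy and Npy include 0.

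Npy encodes neuropeptide Y, a transmitter of sympathetic nerves. It gave 300.1 and 301.6 in KO islets, against 258.6 and 255.8 in WT islets. Both KO arrays lay above both WT arrays, but the log2 change of 0.21 ± 0.08 was not called (limma, adjusted p = 0.0922), with a 95% interval of -0.01 to 0.42. With no filter it was called (limma, adjusted p = 0.0324).

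Vip encodes vasoactive intestinal peptide, known from nerves that reach islets and promote insulin release. It gave 410.4 and 285.4 in KO islets, against 151.7 and 165.1 in WT islets. The KO arrays lay above the WT arrays and differed from each other by 1.44-fold. The KO mean of 348 ± 88.4 was 2.20 times the WT mean of 158 ± 9.48 (SD, n = 2 each), a log2 change of 1.00 ± 0.19 (limma, adjusted p = 0.0161). That call ended without WT replicate 1 (limma, adjusted p = 0.0712), without WT replicate 2 (0.0577) and with no filter (0.0695).

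Penk encodes proenkephalin, the precursor of the enkephalin opioid peptides. On its tested probe set it gave 224.9 and 279.2 in KO islets, against 115.9 and 139.4 in WT islets. The groups did not overlap, and the KO mean of 252 ± 38.4 was 1.97 times the WT mean of 128 ± 16.6 (SD, n = 2 each). The log2 change was 0.86 ± 0.16 (limma, adjusted p = 0.0153), a call that ended without WT replicate 1 (0.0757) and with no filter (0.0555). The other Penk probe sets were too dim to test. One gave 16.9 and 58.4 in KO islets, against -12.4 and 9.9 in WT islets, and the other gave -9.5 and 6.3 in KO islets, against 3.7 and 8.3 in WT islets. The first had its KO arrays above its WT arrays, and the second overlapped.

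The hormone probe sets sat near the top of the intensity range of MG-U74A, where the brightest of all probe sets other than controls reached 33956 and 30510 in KO arrays and 36957 and 37927 in WT arrays. Among 7516 tested probe sets, by mean over the 4 arrays, the brighter Ins2 probe set ranked 3, the brighter Ppy probe set 4, Iapp 7, Sst 9 and Gcg 10. The dimmer Ins2 and Ppy probe sets ranked 41 and 77, and Npy, Vip and Penk ranked 3627, 3909 and 4734. Both probe sets above Ins2 have no gene in the annotation used here and were called lower, with log2 changes of -0.22 and -0.30. On MG-U74B, Pyy ranked 2 of 7861.

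In the top 20 tested probe sets of MG-U74A the median absolute log2 change was 0.28, with changes between -1.01 and 1.31 and 70.0% called. In ranks 21 to 50 the median absolute change was 0.52, and in ranks 51 to 100 it was 0.60. Other probe sets of the MG-U74A top 20 were Rpl41, a ribosomal protein gene, at 0.22 ± 0.07, and Tpt1, translationally controlled tumour protein, at 0.00 ± 0.05. Neither was called (limma, adjusted p = 0.0610 and 0.956). Rpl41 was called higher without KO replicate 1 (limma, adjusted p = 0.0361) or 2 (0.00803) and by quantile normalization (3.48e-04), and Tpt1 lower without KO replicate 1 (0.0261) and higher without KO replicate 2 (0.0222). Larger changes were also recorded at the bright end. Ctrb1, the acinar enzyme chymotrypsinogen, gave 2442.5 and 2255.5 in KO islets, against 18716 and 19286 in WT islets (limma, adjusted p = 9.39e-05). On MG-U74A, Gnas, the stimulatory G protein subunit, changed by -1.01 at a WT level of 15843 and 16172 on the probe set nearest to Gcg and Sst.

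**Figure D3:**
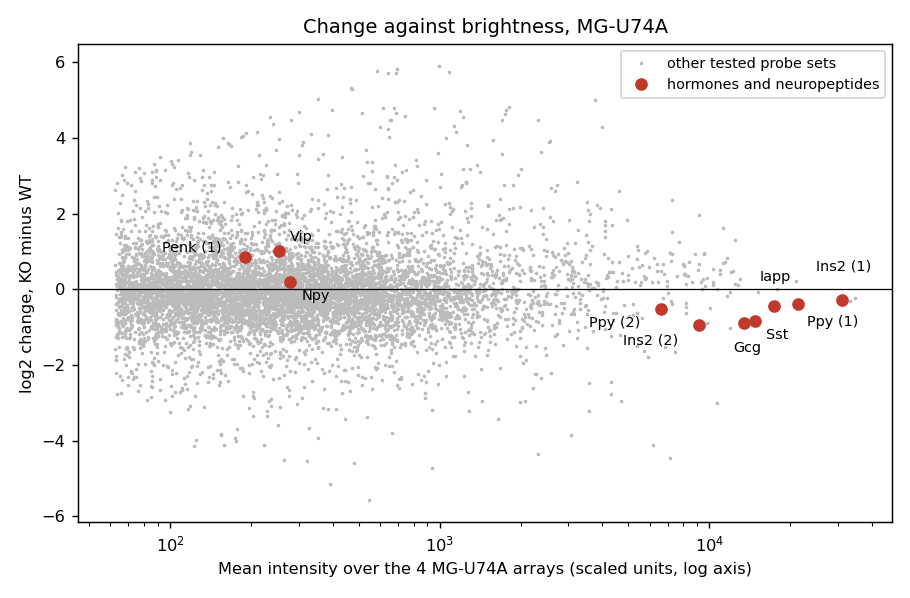
Log2 change, KO minus WT, against mean intensity over the 4 MG-U74A arrays (log axis) for the 7516 tested probe sets, with the 10 probe sets of hormones and neuropeptides in red. The 7 hormone probe sets lie at the bright end below 0, and Vip, Npy and Penk lie at a low brightness above 0.

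Where a gene had a bright and a dim probe set, the bright one changed less for Ins2 and for Ppy. For Ins2 the brighter probe set read 4.02 and 5.06 times the dimmer one in KO arrays, against 2.82 and 2.83 times in WT arrays. For Ppy these ratios were 3.62 and 3.14 in KO arrays, against 3.08 and 3.07 in WT arrays. The ratios did not overlap between genotypes for either gene, but for Ppy the lower KO ratio lay close to the WT ratios. Over all 879 genes with at least 2 tested probe sets on MG-U74A, the brightest changed less than the dimmest in 487 (55.4%). Among the 7 genes whose brightest probe set averaged over 10000, this held for 7, namely Ins2, Ppy, Fth1, H2-D1, H2-K1, Rps24 and Rps28. Both probe sets were called the same way in 3 of them, Ins2, Ppy and H2-K1. The dimmest probe sets of Rps28, Rps24 and H2-K1 averaged only 69.0, 140 and 150.6, where the filter stood at 62.55. The Rps24 pair changed in opposite directions, neither called. The difference between the probe sets of a gene was not tested.

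By distance over the log2 values of the 4 MG-U74A arrays, which joins level and change, the nearest named gene to Gcg was Sst at 0.31, and the nearest to Sst was Gcg. Next to both came Gnas, at 0.43 from Gcg and 0.69 from Sst. Iapp was nearest to Tpt1 (0.45) and Ppy (0.59), Ppy to Iapp (0.59) and Rpl41 (0.61), and Ins2 to Ppy (1.11) and Rpl41 (1.23). Vip lay nearest to Cdk5rap3 (0.11) and Ddx18 (0.23), Penk to Cldn5 (0.12) and Polr2e (0.12), and Npy to Per3 (0.04) and Mrps36 (0.09). Pyy, on MG-U74B, lay nearest to Prelid3a (0.24) and Fth1 (3.27).

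Enzymes and helpers of prohormone processing were lower as well in KO islets. On MG-U74A, 6 of the 8 tested genes fell, 0 were called higher and 2 were not called, at a median log2 change of -1.38, where that of all tested probe sets was -0.09. Of all tested probe sets there, 29.0% were called lower and 23.9% higher. Cpd was among the 6 that fell, at -0.88 (limma, adjusted p = 0.00179). The 6 calls held in all 12 alternative fits. Pcsk1n, an inhibitor of the convertase PC1/3, fell by 3.86 on the log2 scale, giving 329.8 and 422.5 in KO islets, against 5706.3 and 5804.9 in WT islets (limma, adjusted p = 2.02e-04). Pam, which amidates peptides, changed by -2.04, and Cpe, the carboxypeptidase of the granule, by -1.67, giving 3635.9 and 3510.5 in KO islets, against 11412 and 11363 in WT islets. Scg5, the chaperone of the convertase PC2, changed by -1.46 and Pcsk1, PC1/3 itself, by -1.30. Furin and Pcsk5 were not called. On MG-U74B, Cpd (-0.83) and Pcsk6 (-2.65) fell, the 2 members tested there, but neither was called without WT replicate 1 (limma, adjusted p = 0.118 for Cpd and 0.132 for Pcsk6), without WT replicate 2 (0.135 and 0.176), without KO replicate 1 (0.0522 and 0.0659) or with no variance trend (0.0684 and 0.0590), and Pcsk6 was not called with no filter (0.128). The difference between these changes and those of the hormones was not tested.

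Receptors of these peptides were mostly dim. Of 22 with a probe set on MG-U74A, 10 passed the filter, of which 3 fell and 2 were higher, and the median was -0.20. These counts are close to the shares of all tested probe sets called lower (29.0%) and higher (23.9%). The somatostatin receptor genes Sstr5 (-1.14) and Sstr4 (-1.11) fell, as did Npy6r (-0.93), a receptor of the Npy family. Ramp3, a partner of the calcitonin receptor in amylin binding, was listed below 0 on both WT arrays and gave 304.1 and 237.3 in KO arrays (limma, adjusted p = 7.76e-04), and Ramp2 rose by 0.45. Gcgr, the glucagon receptor, gave 407.8 and 380.3 in KO islets, against 412.2 and 410.8 in WT islets, and was not called. Vipr1, the Vip receptor, was not called either, at -0.02, nor were Sstr2, Npy2r and Ramp1. Sstr4 stayed called in all 12 alternative fits and Ramp3 in the 10 that tested it, since it failed the filter without KO replicate 1 and with the stricter filter. The Sstr5 call ended without WT replicate 1 (limma, adjusted p = 0.0679), without WT replicate 2 (0.0935) and with no filter (0.0598), and that of Ramp2 without WT replicate 1 (0.0545) or 2 (0.0928). The Npy6r call ended without WT replicate 2 (limma, adjusted p = 0.134), KO replicate 1 (0.0779) or KO replicate 2 (0.0739) and with no filter (0.0827), and Npy2r was called without KO replicate 2 (0.0218). On MG-U74B, Insr, Adcyap1r1 and another Ramp3 probe set were tested and not called. That Ramp3 probe set gave 137.4 and 69.7 in KO islets, against 284.9 and 6.1 in WT islets, so its arrays overlapped and the MG-U74A difference was not seen on it (limma, adjusted p = 0.859).

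Other peptide hormones and neuropeptides were set beside them on MG-U74A, where of 16 tested genes 5 fell and 2 were higher, and the median was -0.01. Among all tested probe sets 29.0% fell and 23.9% were higher, so the count that fell is near the background and the count that rose below it. Pdyn, prodynorphin, another opioid precursor, gave 67.8 and 79.4 in KO islets, against 344.8 and 346.8 in WT islets, a log2 change of -1.91 (limma, adjusted p = 8.59e-04), opposite in sign to Penk. Nppc (-1.86), Gast, the gastrin gene (-0.96), and Pomc (-0.77) fell, and Trh fell by 0.75 on the log2 scale. Sct, the secretin gene, rose by 0.39 and Igf1 by 0.35. On MG-U74B, Vgf, a granule peptide precursor, was listed below 0 on 1 KO array and at 71.3 on the other, against 1022.8 and 1510.2 in WT islets (limma, adjusted p = 0.0180), and Igf1 was not called there. Of the 7 calls on MG-U74A, 2 were left without WT replicate 1, 1 without WT replicate 2 and 2 with no filter, where Nppc was not tested without either WT array, and that of Pdyn held in all 12 alternative fits. The Vgf call ended without WT replicate 1 (limma, adjusted p = 0.0976) or 2 (0.119), with no filter (0.104) and with no variance trend (0.0503).

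**Figure D4:**
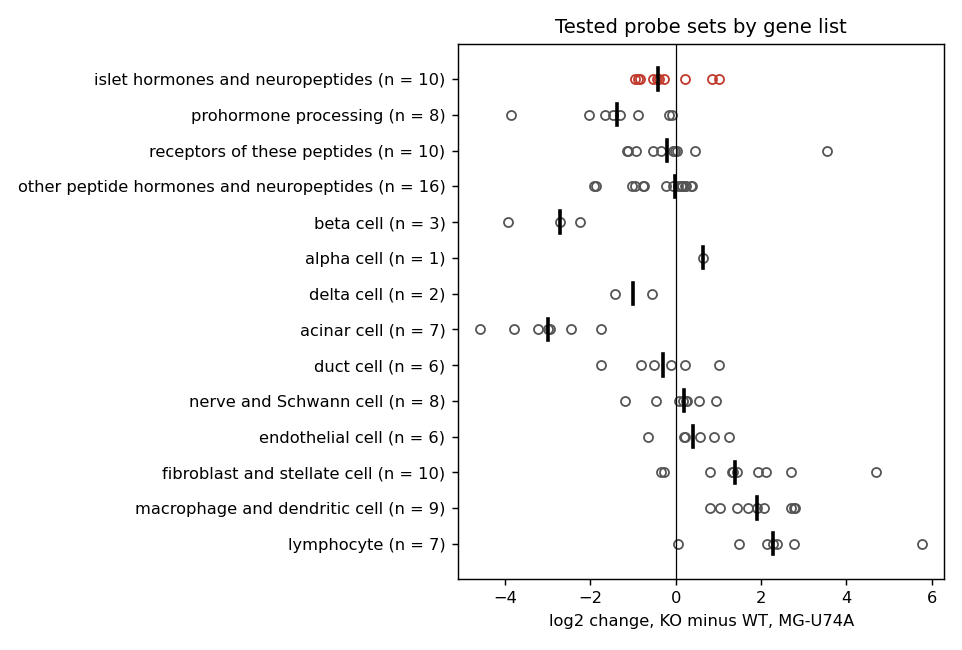
Log2 change, KO minus WT, on MG-U74A for each tested probe set of the hormones and neuropeptides (red) and, by the brightest probe set of each gene, of the gene lists (grey), with the median of each as a black bar. Prohormone processing, beta cell and acinar cell genes lie mostly below 0, and lymphocyte, macrophage and fibroblast genes mostly above 0.

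Markers of endocrine cells other than hormones were measured in part. On MG-U74A, 29.0% of all tested probe sets were called lower and 23.9% higher. The beta cell genes Slc2a2, G6pc2 and Pdx1 fell, 3 of 3 tested, with a median of -2.72. Their summed intensity was 875.6 and 738.6 in KO arrays, against 4615 and 4672 in WT arrays. Slc2a2 and Pdx1 averaged 22.3 and 8.5 in KO islets, below the filter of 62.55. They passed it only through the WT arrays, which left only a fall possible for them. Slc2a2, the glucose transporter, was near background in KO islets at 31.5 and 13.2, against 704.7 and 662.2 in WT islets, and Pdx1 gave 23.1 and -6.1 in KO islets, against 154.9 and 263.6 in WT islets. The Pdx1 call ended with no filter (limma, adjusted p = 0.0552), and Pdx1 was not tested without WT replicate 2. Of the delta cell markers, Rbp4 (-1.42) and Hhex (-0.56) fell, 2 of 2 tested, Hhex not called without WT replicate 1 (limma, adjusted p = 0.145) or 2 (0.135) or with no filter (0.0610). Of the alpha cell markers on MG-U74A only Ttr was tested and rose by 0.64, a call that ended without WT replicate 2 (limma, adjusted p = 0.0507), while 3 were tested and not called on MG-U74B. There Irx2 gave -15.5 and 14.5 in KO islets, against 159.3 and 122.8 in WT islets (limma, adjusted p = 0.0526), and Slc7a2 gave 1001.9 and 882.6 in KO islets, against 1320.0 and 1348.5 in WT islets (0.0565). Both lay lower in each KO array, while the Irx1 arrays overlapped. On MG-U74A, Slc7a2 was too dim to test, at -45.2 and -2.0 in KO islets, against 137.0 and 134.0 in WT islets. Ttr and Rbp4 are also made by other cells.

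Markers of other cell types were read on the same MG-U74A arrays. Of all tested probe sets there, 29.0% were called lower and 23.9% higher, 52.9% in all. The shares of duct and of nerve and Schwann cell genes called, given below, lie near that. Acinar genes fell in 7 of 7, with a summed intensity of 5561 and 4967 in KO arrays, against 39220 and 39530 in WT arrays. Lymphocyte genes rose in 6 of 7 (sums of 20920 and 19780 in KO arrays, against 4260 and 4233 in WT arrays), macrophage and dendritic cell genes in 9 of 9 (17530 and 17360 in KO, against 4837 and 4655 in WT arrays), and fibroblast and stellate cell genes in 8 of 10 with 1 that fell (17800 and 18960 in KO, against 6003 and 5956 in WT arrays). Cd79a, Cd3e, Itgam and Acta2 were listed at or below 0 on both WT arrays, and Cd3e on both KO arrays too. The WT means of Cd79a (-173.6), Cd3d (11.0), Ptprc (56.5), Thy1 (26.1) and Acta2 (-29.3) lay below the filter of 62.55. So did the KO mean of Clps, an acinar gene (-8.15). These genes were tested only through the genotype where they are high, so the filter fixed the direction of their change. Endothelial genes rose in 4 of 6 and fell in 1, and duct genes rose in 1 of 6 and fell in 3. The 5 endothelial calls became 2 without WT replicate 1 or 2, and those of Cdh5 and Kdr ended with a replicate block (limma, adjusted p = 0.0967 and 0.0931). Nerve and Schwann cell genes, set beside Vip, Npy and Penk, had 2 rises and 2 falls of 8, with sums of 2740 and 2998 in KO arrays, against 2641 and 2751 in WT arrays, and Nefm was listed below 0 on all 4. Those 4 calls became 2 without WT replicate 1 or 2. On MG-U74B another Nefm probe set fell by 2.08 on the log2 scale (limma, adjusted p = 0.0400), a call lost without any 1 array (0.0510 to 0.207), with a replicate block (0.0527), with no filter (0.131) or without the variance trend (0.0510). The part of these cell types in the hormone and neuropeptide results was not tested.

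A control for the completeness of the labelled RNA also differed between the genotypes. For Gapdh, signal at the 3' end over signal at the 5' end was 0.949 and 0.937 in KO arrays of MG-U74A, against 3.15 and 3.22 in WT arrays, and a higher ratio goes with less complete labelled RNA. On MG-U74B it was 0.900 and 0.914 in KO arrays, against 3.07 and 3.125 in WT arrays. The same ratio for actin differed less, at 1.16 and 1.125 in KO arrays of MG-U74A, against 1.475 and 1.45 in WT arrays. The spike control bioB read 3956 and 3472 in KO arrays of MG-U74A, against 121.5 and 185.3 in WT arrays. On MG-U74B it read 11660 and 9575 in KO arrays, against 632.3 and 597.3 in WT arrays. Another spike control, creX, differed far less, at 3273 and 2727 in KO arrays of MG-U74A, against 3795 and 3799 in WT arrays. For creX on MG-U74B the values were 9116 and 7896 in KO arrays, against 8231 and 8533 in WT arrays. Replicates correlated across probe sets at 0.956 in KO and 0.979 in WT arrays of MG-U74A and at 0.920 and 0.932 on MG-U74B (Spearman), and arrays of different genotypes at 0.824 to 0.868. The part of RNA completeness and of the bioB difference in the hormone results was not tested.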

How the data were processed

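Total RNA of KO and WT islets was measured on 2 array types. The deposited intensity values, 1 per probe set, were scaled by the authors, as the values show, to a common trimmed mean, and 18.4% to 26.7% per array lie below 0. The array software is not given in the labels used here. Each array was scaled to the trimmed mean of its type (2% off each end), values below 0 were set to 0, 10% of that mean was added and log2 taken. Probe sets averaging below 25% of it and 66 controls per type were not tested. A gene whose mean in 1 genotype lay below that filter was tested only through the other, which fixed its direction. Besides the markers named above, this holds for Ramp3 and Nppc on MG-U74A and for Vgf, Pcsk6 and Nefm on MG-U74B. KO was compared with WT by limma 3.58.1 in R 4.3.3 (lmFit, eBayes with trend, two-sided, Benjamini-Hochberg), per array type. The procedure was also run on simulated data with far fewer changed probe sets than were called here. That run therefore does not cover differences as widespread as these. For arrays their number limits precision, and a p-value here reflects array-to-array spread, part of which may be technical. Symbols were updated through the GRCm38.p6 gene table, and 10855 probe sets of MG-U74A and 10603 of MG-U74B have 1 symbol. Besides the 10 genes, the text names the 2 genes nearest to each over the 4 arrays, up to 4 called list members by size, added to where said, and bright probe sets. Beyond that rule, Pcsk1, Trh, Sct, Igf1, Ctrb1 and the genes with unequal probe sets were named after their values were seen. The members and lists were chosen with earlier results of these data known. The targeted gene is not reported here.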

Additional observations from a re-analysis of the deposited data

How the results depend on the processing

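The replicate numbers are shared between genotypes, but same-numbered deviations hardly correlated (0.02 on MG-U74A and 0.03 on MG-U74B). A replicate block left 3628 calls on MG-U74A, against 3974, and 1207 on MG-U74B, against 1372, with the 9 calls on hormones and neuropeptides of MG-U74A in place. Among the other named genes it ended the calls of Cdh5, Kdr and, on MG-U74B, Nefm. With no filter 4 hormone and neuropeptide probe sets were called, 3 of those 9 and Npy, and fewer of the 9 stayed called when a WT array was left out. On MG-U74B quantile normalization raised 0 such calls to 1. Called probe sets numbered 2439 to 4209 on MG-U74A and 1 to 934 on MG-U74B with 1 array left out (2454 and 2439 without WT replicate 1 and 2 on MG-U74A, 1 and 1 on MG-U74B, and 539 there without KO replicate 1), fits in which the lone array is assumed to vary like the other pair. On MG-U74B there were 764 calls with no filter and 638 with no variance trend. The median log2 change of the top 20, -0.07, became 0.00 by quantile normalization and ranged from -0.19 to 0.13 with 1 array left out. Quantile normalization gives all arrays the same set of values, which limits a shared shift at the top. The 487 genes whose brightest probe set changed less became 854 with no filter and 320 with the stricter filter, since these alter the number of probe sets tested. By quantile normalization Pyy turned to -0.52, Gcgr to 0.004 and Vipr1 to 0.0397. With 1 array left out, Vipr1 ranged from -0.2725 to 0.2279, Tpt1 from -0.064 to 0.0721 and Ramp1 from -0.017 to 0.0911, each with a change of sign, in Vipr1 without WT replicate 2 or KO replicate 2 and in the others without KO replicate 1. The cause was not tested. The brightness at which these arrays saturate is not known here.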
